A study of Saccharomyces cerevisiae with 6 samples.

Results

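A group of 10 yeast genes known for their induction under stress were followed in cells with and without the histone demethylase gene JHD2: DDR2 (YOL052C-A), HSP12 (YFL014W), TMA10 (YLR327C), STF2 (YGR008C), TMA17 (YDL110C), GAD1 (YMR250W), HOR7 (YMR251W-A), RTN2 (YDL204W), TFS1 (YLR178C) and MSC1 (YML128C). They are 10 of the 4014 genes in the deposited table and hold 28 of its 13565 clusters of polyadenylation (pA) sites. The genes were chosen by name with their fold changes in these same libraries already known. Their difference in mRNA level between the strains is therefore given as a description, and nothing is supported with it. Polyadenylated RNA of Saccharomyces cerevisiae grown to mid-log phase was sequenced in 3 libraries of a strain lacking JHD2 and 3 of wild type. The sources used here do not give the strain background, the medium or whether replicates were separate cultures, so the tests measure a spread between libraries that may be technical. The libraries were made by 3′READS, a method that sequences transcripts at the point where they were cleaved and tailed. Since each transcript yields an end and not a series of fragments, levels were not divided by gene length.

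In budding yeast the related transcription factors Msn2 and Msn4 enter the nucleus when growth signals through protein kinase A fall or when cells meet heat, osmotic, oxidative or nutrient stress. They bind the stress response element, a short motif with the letters AGGGG, and switch on a broad set of protective genes that are kept low in fast-growing cells. Jhd2 removes methyl groups from lysine 4 of histone H3, a mark found at the start of active genes.

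The label "small" held for 7 of the 10 genes. Their coding lengths were 180 bases (HOR7), 186 (DDR2), 255 (STF2), 261 (TMA10), 330 (HSP12), 453 (TMA17) and 660 (TFS1), and 24.4% of the 6021 annotated protein-coding genes span 700 bases or less. RTN2 (1182 bases), MSC1 (1542) and GAD1 (1758) were of about the typical length or longer, the annotated median span being 1203 bases. All these lengths are spans of the annotated gene from first to last base.

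The promoters carried the element through which Msn2 and Msn4 act. In the window from 250 bases before to 50 bases after the first base of the start codon, AGGGG on either strand was present in 8 of the 10 genes, against 21.6% of 6002 nuclear protein-coding genes. At least 2 copies were present in 5 of the 10, against 2.93% of all. In the 500 bases before the start codon all 10 genes had a copy, against 34.1% of all genes. HSP12 had 5 copies there, DDR2 had 4 and TMA17 had 3. STF2, HOR7, TFS1 and MSC1 had 2 each, and TMA10, GAD1 and RTN2 had 1 each. The genes were chosen as stress genes, so a motif known from such genes is a description of the choice, and a match of letters does not show that a factor binds.

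The copy nearest the start codon is shown for the genes called higher below and for HSP12. Each line is read 5′ to 3′ on the strand of the gene from the RefSeq R64 genome (the sacCer3 assembly), with the element in capitals (CCCCT is AGGGG on the other strand).
DDR2, chrXV:231914-231942, minus strand: tgtcttttctcaCCCCTtatgggacatca
TMA10, chrXII:783709-783737, minus strand: ttgagccaccccCCCCTcaggagtaaatt
STF2, chrVII:508537-508565, minus strand: tccttcgaaaacAGGGGgctgcgagcgca
TMA17, chrIV:265011-265039, minus strand: cttgacaaaaagAGGGGtaagatctttat
GAD1, chrXIII:770626-770654, plus strand: cacaccagaaaaAGGGGatcagtaaagtg
HSP12, chrVI:107054-107082, plus strand: gttccggtcgtcCCCCTcttgatctgaaa

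The element ended 58 bases before the start codon in TMA17, 158 in GAD1, 170 in DDR2, 184 in STF2 and 185 in HSP12. In TMA10 it ended 333 bases before it, at the end of a longer run of C.

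**Figure D1:**
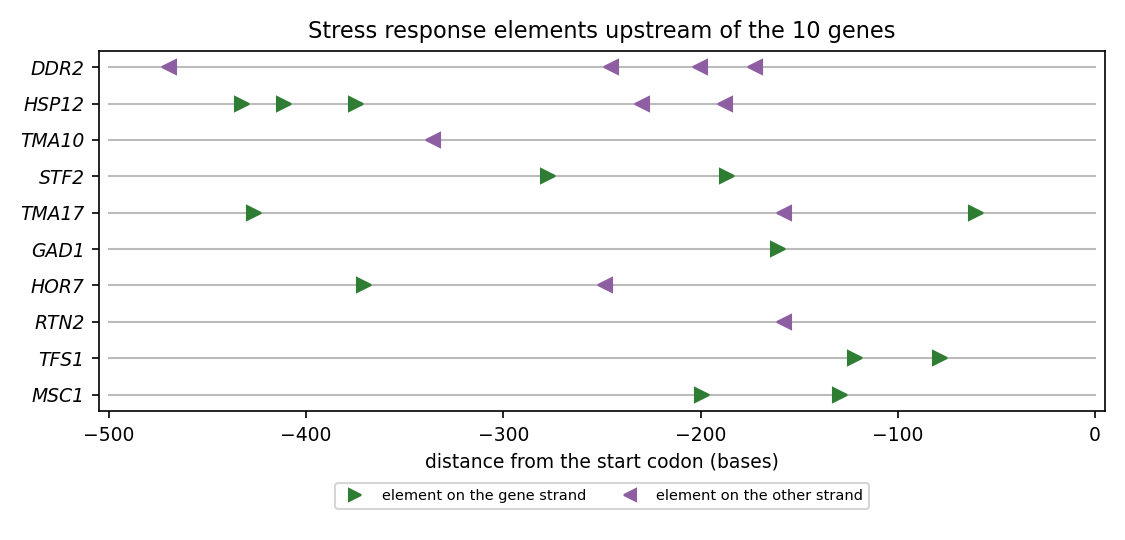
Positions of AGGGG in the 500 bases before the start codon of the 10 genes. Triangles pointing right mark the motif on the strand of the gene and those pointing left the motif on the other strand. HSP12 has 5 copies and TMA10, GAD1 and RTN2 have 1 each.

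The number of reads in the table bounds what can be said of these genes. The table held 380332 to 480847 reads in the deletion libraries and 233749 to 368419 in the wild-type libraries, of which 782 to 1080 and 309 to 449 belonged to the 10 genes. JHD2 had 0 clusters in the table and gave no check of the deletion. Replicates of a strain differed by more than sampling noise in every pair (chi-square per degree of freedom from 1.39 to 3.27). Wild-type replicate 2, the library with the fewest reads in the table, correlated least with its own group across genes (mean 0.943, against 0.952 to 0.973 for the others). The 200 bases before the most-read cluster of each of the 10 genes had 0 copies of 100 bases or more at 95% identity elsewhere in the genome. Shorter matches were found for TFS1 (271, the longest 56 bases at 82.1% identity) and HOR7 (8, the longest 46 bases at 80.4%). Reads longer than 15 bp were aligned, so the search does not show that every read has a single place of origin.

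In wild-type cells the 10 genes spanned a wide range of levels. Levels are scaled counts per 1e6 reads (CPM), given as mean ± SD with n = 3 libraries. HOR7 stood highest at 469 ± 117 CPM, followed by STF2 (303 ± 57.7), GAD1 (214 ± 19.2), TFS1 (104.1 ± 28.0), TMA17 (96.4 ± 38.6), HSP12 (52.2 ± 12.4), MSC1 (47.2 ± 9.21), RTN2 (18.6 ± 7.60), TMA10 (17.6 ± 4.37) and DDR2 (12.2 ± 3.12). Neighbours in this order whose wild-type libraries did not overlap were STF2 and GAD1, GAD1 and TFS1, and MSC1 and RTN2. The libraries of the other neighbours overlapped, although within each wild-type library HOR7 stood above STF2 and TMA10 above DDR2. In the deletion the order ran from STF2 (621 ± 56.8) and HOR7 (607 ± 44.7) through GAD1 (340 ± 50.1), TMA17 (183 ± 22.4), TFS1 (181 ± 26.7), HSP12 (71.8 ± 4.11), TMA10 (63.9 ± 11.7), MSC1 (59.2 ± 12.01) and DDR2 (48.5 ± 12.5) to RTN2 (7.17 ± 0.852). There the neighbours without overlap were HOR7 and GAD1, GAD1 and TMA17, TFS1 and HSP12, and DDR2 and RTN2. The other neighbours overlapped, and HOR7 stood above STF2 in deletion replicate 1. RTN2 had 3 reads in each deletion library, so its SD there comes from scaling alone.

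**Figure D2:**
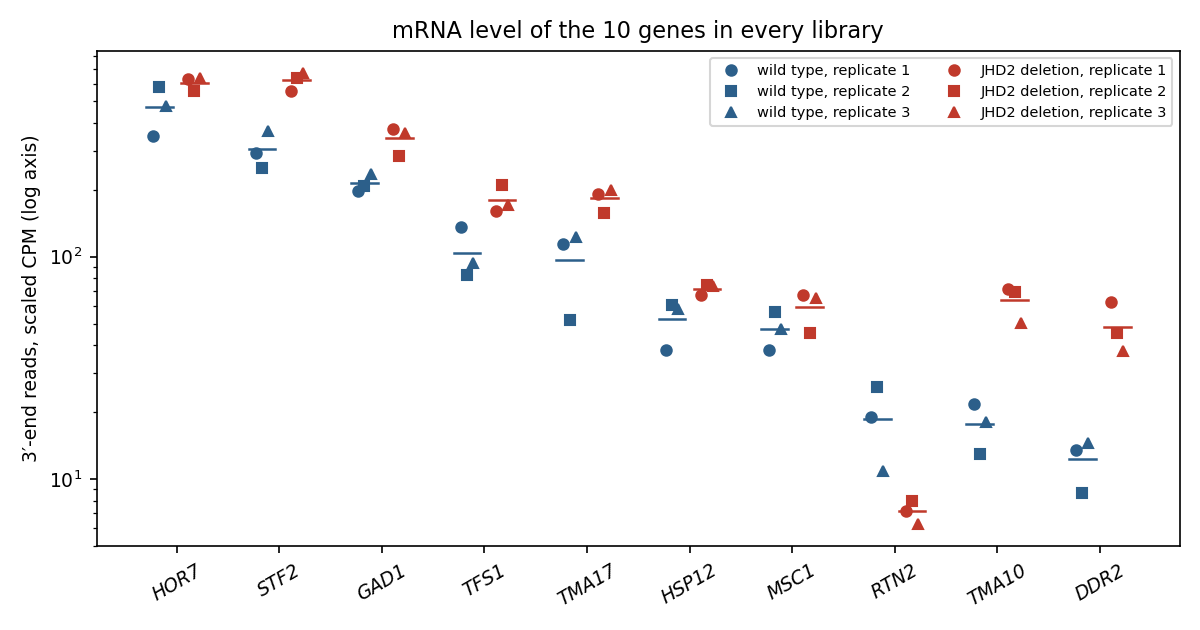
Scaled 3′-end reads (CPM, log axis) of the 10 genes in each library, ordered by wild-type mean. Blue points are wild type and red points the JHD2 deletion, with a marker shape per replicate number and a line at the mean of 3. The red and blue points do not overlap except for HOR7 and MSC1, and RTN2 is the gene whose red points lie below the blue ones.

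Of the 10 genes, 9 passed the filter on low counts and were tested, and 5 of these rose in the deletion: DDR2, TMA10, STF2, TMA17 and GAD1. Over all genes tested, 1.07% were called higher (36 of 3366, edgeR's quasi-likelihood test with Benjamini-Hochberg adjustment at 0.05). Since the genes were chosen with this contrast known, the 2 shares are set side by side and nothing is read from them. In bulk RNA, more cells using a gene and more RNA per cell cannot be told apart. The 5 adjusted p ran from 2.3e-05 for STF2 to 0.023 for TMA17 and GAD1 (edgeR). The deletion libraries all lay above the wild-type libraries in 7 of the 9 tested genes, as in 8.62% of all genes tested. The log2 fold changes of the 9 ran from 0.38 to 1.91 with a median of 0.74, beside a median of -0.00026 over all genes tested. DDR2 and TMA10 had fewer than 10 reads in every wild-type library and so passed the filter through their deletion libraries, and RTN2, the gene left out, was lower in the deletion. The counts over the tested genes therefore do not describe all 10. The number called higher fell to 1 (STF2) with the DESeq2 Wald test or with the most-read cluster of each gene alone, to 2 without deletion replicate 1 and to 3 without deletion replicate 3.

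DDR2 and HOR7 are duplicates from the ancient doubling of the yeast genome, and both encode very short proteins induced by several stresses, of unclear function. DDR2 (chromosome XV, 231570 to 231755, minus strand) had 26, 17 and 18 reads in the deletion (replicates 1, 2 and 3, the order used throughout) against 5, 2 and 4 in wild type. After scaling these were 62.3, 45.4 and 37.8 CPM against 13.6, 8.68 and 14.5. Every deletion library was above every wild-type library, and DDR2 rose by a log2 fold change of 1.91 (SE 0.42). With 61 deletion reads and 11 wild-type reads, counting error allows a ratio between 2.00 and 8.07 (exact 95% interval around 3.83). The call was lost without deletion replicate 1 (1.69, adjusted p = 0.086, edgeR).

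HOR7 (chromosome XIII, 774752 to 774931, plus strand) was the more abundant duplicate. It had 628, 555 and 637 CPM in the deletion against 347, 582 and 478 in wild type. Wild-type replicate 2 lay above deletion replicate 2, so the groups overlapped, and HOR7 was not called (0.39, SE 0.16). Without wild-type replicate 2 it was called (0.56, adjusted p = 0.022, edgeR), and without wild-type replicate 1 the value was 0.19.

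TMA10 and STF2 are the other duplicate pair. Tma10 associates with ribosomes, and Stf2 was found with the mitochondrial ATP synthase, where it helps an inhibitor protein to bind, and also protects cells that dry out. TMA10 (chromosome XII, 783127 to 783387, minus strand) had 30, 26 and 24 reads in the deletion against 8, 3 and 5 in wild type, or 71.9, 69.4 and 50.4 CPM against 21.7, 13.02 and 18.1. The groups did not overlap and TMA10 rose by 1.77 (SE 0.36). Its 80 and 16 reads allow a ratio between 2.00 and 6.33 for counting error.

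STF2 (chromosome VII, 508110 to 508364, minus strand) had 233, 239 and 318 reads in the deletion against 108, 58 and 101 in wild type. Its levels were 558, 638 and 668 CPM against 293, 252 and 366. No deletion library was as low as the highest wild-type library, and STF2 rose by 1.03 (SE 0.16). It was called under each of the 14 alternatives run, with log2 fold changes from 0.92 to 1.18.

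Within each library the ratio of the duplicates needs no scaling. There were 9.92, 8.17 and 5.94 DDR2 reads per 100 HOR7 reads in the deletion against 3.91, 1.49 and 3.03 in wild type, or 8.01 ± 2.00 against 2.81 ± 1.22. The lowest deletion library was thus above the highest wild-type library. TMA10 had 12.9, 10.9 and 7.55 reads per 100 STF2 reads in the deletion against 7.41, 5.17 and 4.95 in wild type, or 10.4 ± 2.69 against 5.84 ± 1.36. Here the groups were separated by 7.55 against 7.41, a smaller gap than the spread within either group. In both pairs the scarcer duplicate carried the larger log2 fold change, and its ratio rests on 2 to 8 reads in each wild-type library. The aligned coding sequences were 63.6% identical between DDR2 and HOR7 and 66.7% between TMA10 and STF2.

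**Figure D3:**
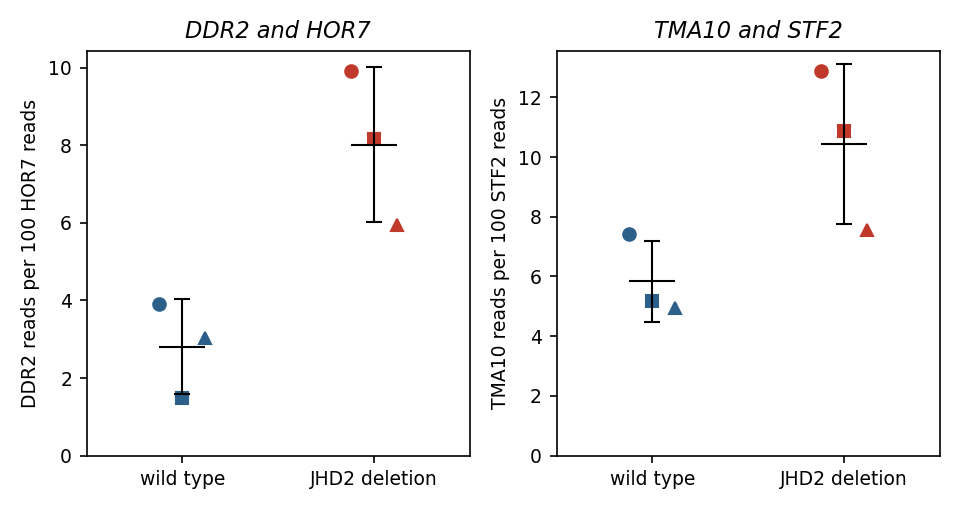
Reads of the scarcer duplicate per 100 reads of the more abundant one in each library, DDR2 over HOR7 (left) and TMA10 over STF2 (right). Points are libraries with a marker shape per replicate number, and black bars are mean ± SD of 3. The deletion libraries lie at 5.94 or more on the left and 7.55 or more on the right, the wild-type libraries at 3.91 or less and 7.41 or less.

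TMA17 encodes a chaperone that helps to assemble the proteasome. TMA17 (chromosome IV, 264512 to 264964, minus strand) had 192, 157 and 200 CPM in the deletion against 114, 52.1 and 123 in wild type. The groups did not overlap, wild-type replicate 2 was the lowest library, and TMA17 rose by 0.88 (SE 0.22). The call was lost without wild-type replicate 2 (0.63, adjusted p = 0.14) and without deletion replicate 1 (adjusted p = 0.065) or 3 (adjusted p = 0.14, all edgeR).

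GAD1 encodes glutamate decarboxylase, which forms GABA from glutamate and is needed for normal tolerance of oxidative stress. GAD1 (chromosome XIII, 770801 to 772558, plus strand) had 376, 283 and 361 CPM in the deletion against 198, 208 and 235 in wild type. The groups did not overlap and GAD1 rose by 0.68 (SE 0.17). It lost the call without deletion replicate 1 (0.60, adjusted p = 0.16), without deletion replicate 3 (adjusted p = 0.13) and without wild-type replicate 1 (adjusted p = 0.14, all edgeR).

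HSP12, HOR7, TFS1 and MSC1 were tested and not called. HSP12 encodes a small hydrophilic protein that stabilises membranes and is often used as a readout of Msn2 and Msn4. HSP12 (chromosome VI, 107256 to 107585, plus strand) had 67.1, 74.7 and 73.5 CPM in the deletion against 38.0, 60.8 and 57.9 in wild type. Those groups did not overlap, yet the fitted value was 0.51 (SE 0.27) on 91 and 44 reads, and counting error allows a ratio from 0.986 to 2.10. Without wild-type replicate 1, its lowest library, the value was 0.27. HSP12, with 5 elements in its upstream window, had a smaller log2 fold change than TMA10, with 1 (1.77). In the other direction, DDR2, with 4 elements, had 1.91 and GAD1, with 1, had 0.68. These contrasts compare single genes, and a relation to the number of elements was not tested.

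TFS1 encodes an inhibitor of the vacuolar carboxypeptidase Y that also binds a Ras regulator of the protein kinase A pathway. TFS1 (chromosome XII, 513162 to 513821, minus strand) had 161, 211 and 170 CPM in the deletion against 136, 82.5 and 94.1 in wild type. The groups did not overlap, and its value of 0.74 (SE 0.21) fell short of the threshold (adjusted p = 0.063, edgeR). Without wild-type replicate 1, its highest wild-type library, TFS1 was called (1.00, adjusted p = 0.018, edgeR).

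MSC1, a gene whose loss alters recombination between sister chromatids in meiosis (chromosome XIII, 15135 to 16676, minus strand), had 67.1, 45.4 and 65.1 CPM in the deletion against 38.0, 56.4 and 47.1 in wild type. The groups overlapped, and the value was 0.38 (SE 0.29), or 0.21 without wild-type replicate 1.

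RTN2 encodes a reticulon, a protein that bends the membrane of the endoplasmic reticulum into tubules. RTN2 (chromosome IV, 94605 to 95786, plus strand) had 3 reads in each deletion library and 7, 6 and 3 in wild type. Its scaled levels were 7.19, 8.01 and 6.30 CPM against 19.0, 26.0 and 10.9. RTN2 thus had a lower mean in the deletion, where the other genes had a higher mean. Wild-type replicate 3 had the same 3 reads as each deletion library, so its place above them comes from scaling alone. With 9 reads against 16 the ratio was 0.388, and counting error alone allows 0.151 to 0.933 (exact 95% interval). It was too scarce for the main test, and without the filter on low counts it was not called (-1.33, SE 0.58, adjusted p = 0.40, edgeR).

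**Figure D4:**
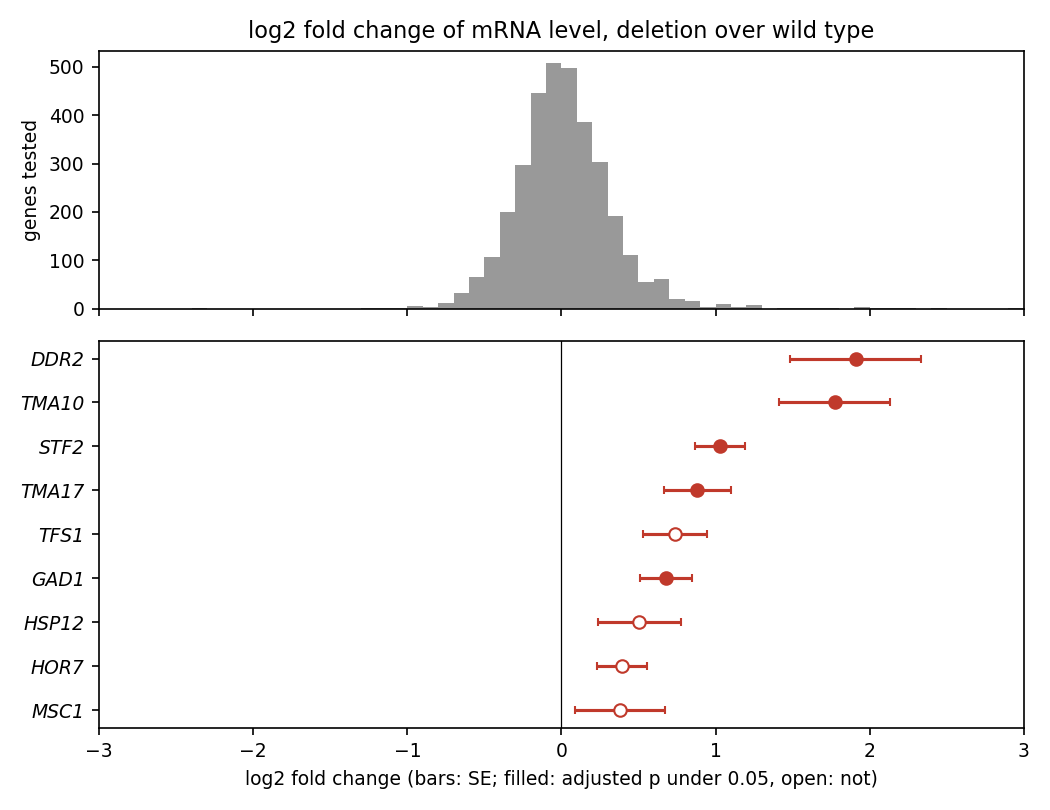
Top, number of genes tested by log2 fold change of mRNA level (deletion over wild type, bins of 0.1, with values past -3 and 3 placed in the end bins). Bottom, the fitted value of the 9 tested genes with its SE, filled where the adjusted p was under 0.05. The 9 values lie between 0.38 and 1.91, on the right flank of the distribution.

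Each of the 10 genes had 2 to 4 clusters of 3′ ends, 5 of the 10 had 2, TMA10, TFS1 and MSC1 had 4, and 31.2% of all genes in the table had 2. At least 90% of reads lay at a single cluster in 5 genes (TMA17, HOR7, GAD1, STF2 and HSP12), as in 18.01% of all genes. The most-read cluster lay 56 nt (TFS1) to 284 nt (DDR2 and HOR7) past the stop codon, with a median of 186 nt beside 124 nt for all genes. The downstream neighbour was convergent for 7 of the 10 and on the same strand for TMA17, GAD1 and MSC1, and it was convergent for 55.2% of all genes in the table. The minor STF2 cluster at 194 nt and the minor TFS1 cluster at 303 nt lay past the end of the convergent gene, ECT1 and YLR177W in turn, on the strand opposite to it. Among the 28 clusters, 10 accounted for under 5% of the table's reads for their gene.

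TATATA, the element that directs efficient 3′ end formation in yeast, was present on the gene strand in the 100 bases ending at the most-read cluster in 7 of the 10 genes, against 45.1% of 4013 genes. In the last 60 bases it was present in 3 of the 10, against 31.2%. The duplicates DDR2 and HOR7, whose main clusters lie at the same distance from the stop codon, are shown around this element, given in capitals. From the element to the main cluster there were 70 bases in DDR2 and 45 in HOR7, so the place of the element differed. The 30 bases that end at the main HSP12 cluster are shown because they close with a genomic run of A, which can be taken for the start of the tail, so that the position of cleavage within it is uncertain.
DDR2, chrXV:231344-231373, minus strand: ctcaaatattctTATATAacactatttcat
HOR7, chrXIII:775153-775182, plus strand: ttcaagtttataTATATAacaatataatat
HSP12, chrVI:107751-107780, plus strand: taaaaattagctgtttttttaaaaaaaaaa

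Relative use of the clusters was tested in 4 of the 10 genes, those with 2 or more clusters of 20 or more reads in all, and changed in 0 of them (edgeR's diffSpliceDGE, adjusted p from 0.96 to 0.99). At an unadjusted p under 0.05 the count was also 0, as it was by limma-voom and by the Simes test, and 0.21% of 2380 genes were called overall. With no minimum on clusters all 10 genes were tested and 0 were called. A p above the threshold does not show equal use.

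STF2 had 96.5% ± 1.54 of its reads at 163 nt in the deletion against 95.5% ± 3.10 in wild type. HOR7 had 97.7% ± 0.373 at 284 nt and 96.5% ± 2.41. For each gene the groups differed by less than the spread of the wild-type libraries. The mean 3′ end differed by -0.31 nt in STF2, which became 0.061 nt without wild-type replicate 2, and by -0.73 nt in HOR7 (deletion minus wild type).

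Among the genes tested for relative use, only TMA10 had no dominant end. Its clusters at 138, 169 and 196 nt past the stop codon held 43.8% ± 1.81, 13.4% ± 6.20 and 38.9% ± 2.53 of reads in the deletion. In wild type they held 32.5% ± 30.3, 10.8% ± 10.1 and 56.7% ± 40.4. The wild-type SDs reflect 8, 3 and 5 reads per library: the 3 reads of replicate 2 were all at 196 nt. The mean end of the tested clusters was 165 nt ± 0.598 against 173 nt ± 21.8, a difference of -7.94 nt. That difference turned to 3.45 nt without wild-type replicate 2 and was -18.3 nt without wild-type replicate 3. It was -23.3 nt over all 4 TMA10 clusters, and TMA10 usage was not called in any of these cases.

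TFS1 also had ends inside its coding region. The cluster 111 nt before the end of the coding region held 10.2% ± 1.40 of TFS1 reads in the deletion libraries and 10.6% ± 4.69 in those of wild type. The cluster 31 nt into the gene held 1, 3 and 1 reads in the deletion against 4, 1 and 3 in wild type, or 2.17% ± 1.41 against 8.27% ± 3.15. The last difference rests on 13 reads and was not part of the usage test. Over the 2 tested TFS1 clusters, at 56 nt past and 111 nt before the end of the coding region, the mean end differed by 2.17 nt, less than the spread in wild type (9.81 nt). Without wild-type replicate 3 that difference was -3.04 nt and without wild-type replicate 1 it was 6.70 nt. Over all 4 clusters, which take in the 13 reads near the start of the gene, it differed by 44.8 nt and TFS1 was not called (adjusted p = 0.88, edgeR). Adjusted p for TFS1 usage ran from 0.88 to 1.00 over the alternatives.

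Ends inside coding regions were found in 5 of the 10 genes, with 72 of their 3933 reads (1.83%, beside 2.16% for all genes in the table, where 39.4% of genes had such a cluster). RTN2 was the extreme: its clusters 24 and 70 nt into the gene held 10 of its 25 reads. GAD1 had 10 of 621 reads at a cluster 582 nt before the end of its coding region. TMA10 had 3 reads 221 nt before that end, all in deletion replicate 2, and MSC1 had 4 reads 3 nt before it.

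In the remaining genes most reads lay at a main end. TMA17 had 98.7% ± 0.329 at 187 nt in the deletion against 100% in wild type, the other cluster having 1 read in each deletion library. GAD1 had 97.5% ± 1.56 and 94.8% ± 2.85 at 112 nt. Its cluster at 306 nt had 1, 1 and 3 reads in the deletion libraries and 2 in each of wild type, while the main cluster had 153, 105 and 165 against 71, 44 and 62. HSP12 had 94.3% ± 2.47 and 90.5% ± 16.5 at 195 nt, and its 4 wild-type reads at 108 nt all came from replicate 1. DDR2 had 86.2% ± 12.2 and 91.7% ± 14.4 at 284 nt and MSC1 86.1% ± 4.00 and 87.4% ± 16.1 at 184 nt.

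**Figure D5:**
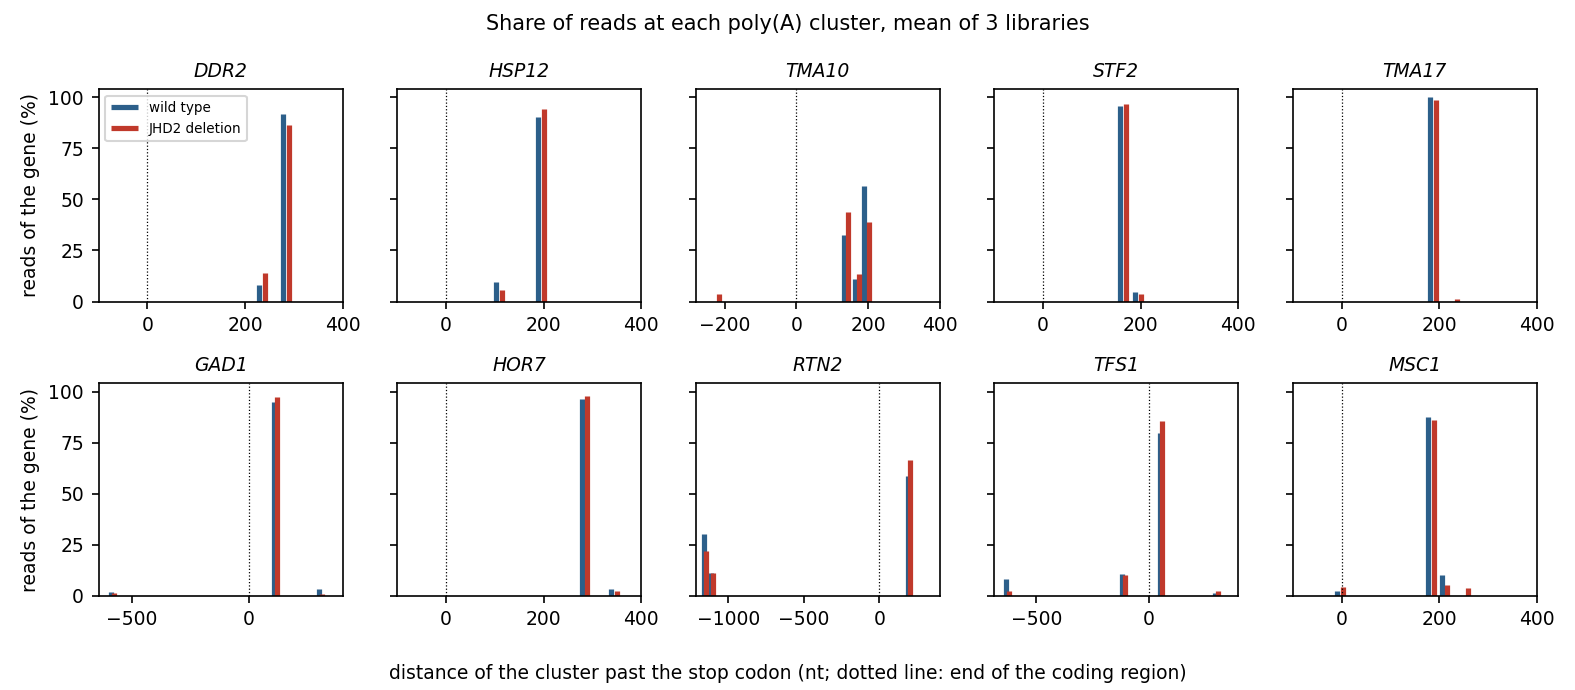
Share of the reads of each gene (%) at each of its clusters, by distance past the stop codon in nt, as the mean of 3 libraries. Blue bars are wild type and red bars the deletion, drawn side by side, and the dotted line is the end of the coding region. Apart from TMA10 and RTN2, each gene has a cluster with 79.8% of reads or more in both strains.

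Other genes known to respond to Msn2 and Msn4 served as a comparison. Of 50 listed, 33 were in the table and 30 were tested: 7 rose, 0 fell and 23 did not pass, beside 1.07% of all genes tested called higher. These were HXK1 (hexokinase, 2.04), GPH1 (glycogen phosphorylase, 2.43), YGP1 (a secreted glycoprotein, 1.68), SPI1 (a wall protein, 1.73), GSY2 (glycogen synthase, 1.98), PGM2 (phosphoglucomutase, 1.61) and CTT1 (catalase, 1.16). The median log2 fold change was 0.42 and 27 of 30 were above 0, as were 50.0% of all genes tested. The summed level of the list was 8418 to 9577 CPM in the deletion and 4409 to 5572 in wild type. The list was drawn up with part of these values known and is no independent evidence of direction.

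Chaperone genes under the heat shock factor Hsf1 lay mostly below 0, and their difference from the lists above was not tested. Of 20 listed, 14 were in the table and tested, and 0 of these were called by edgeR, limma-voom or DESeq2. An unadjusted p under 0.05 was found for 2 of the 14 (edgeR), with no share over all genes to set beside it. The median of the 14 was -0.18, and 1 of 14 was above 0, beside 50.0% of all genes tested. HSP82 (-0.51, SE 0.14), HSP60 (-0.48, SE 0.16) and APJ1 (-0.60, SE 0.33) had the smallest p. HSP82 fell just short of the threshold (adjusted p = 0.053, edgeR). Ribosomal protein genes of the large subunit, a readout of growth, had a median of 0.00 over the 19 tested of 34 listed. By the same tools 0 were called, and 1 had an unadjusted p under 0.05, again without a share over all genes. The summed level of the 19 was 46725 to 49686 CPM in the deletion and 47789 to 48437 in wild type. RPL17A (0.30), RPL18B (-0.32) and RPL17B (-0.20) had the smallest p. Paralogous ribosomal protein genes can share reads, so single values of these are uncertain.

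Outside these lists, the genes whose centred log2 levels over the 6 libraries lay closest to the mean profile of the 9 tested genes were PIC2, EMI2, GEP4, TPO3 and SDH3. The root mean square difference was 0.12 for PIC2 (a mitochondrial carrier), 0.14 for EMI2 (a hexokinase relative), 0.15 for GEP4 (a phosphatase of cardiolipin synthesis), 0.15 for TPO3 (a polyamine transporter) and 0.18 for SDH3 (succinate dehydrogenase). Among the 9 genes themselves it was lowest for STF2 (0.15) and GAD1 (0.17) and highest for DDR2 (0.48). The mean centred profile was 0.52, 0.39 and 0.44 in deletion replicates 1, 2 and 3 and -0.46, -0.59 and -0.31 in wild-type replicates 1, 2 and 3.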

How the data were processed

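The authors deposited raw read counts for each pA cluster in each library. According to the series description, adapters were trimmed and reads longer than 15 bp were aligned to sacCer3 with Bowtie2 in local mode (version not given in the sources used here). By that text, alignments needed a mapping quality of 10 or more and 2 or more unaligned T bases, ends were clustered within 24 bp and given to genes extended by up to 1000 bp, and clusters with under 3 reads or under 5% of the gene's reads were removed. Yet 10 of the 28 clusters described here hold under 5% of the table's reads for their gene, so how the 5% rule was applied is not known. The listed genes have 2 or more clusters, so column totals are not library depths. Positions are printed as deposited and can be off by 1 nt.

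Genes, positions and sequences came from RefSeq R64 (the sacCer3 assembly), where 4013 of 4014 identifiers were found. Reads summed per gene were tested in edgeR 4.0.16 under R 4.3.3 by quasi-likelihood (TMM scaling, the default filter and group alone as a term), and site usage with its diffSpliceDGE on clusters with 20 or more reads. P-values were adjusted over all genes by Benjamini-Hochberg. Alternatives used limma 3.58.1, DESeq2 1.42.0, other filters, scalings and cluster sets, each library left out, and replicate as a block. Both tests were also run on counts simulated with the spread fitted to these same libraries. That run does not bear on the calls for the 10 genes. Copies were searched with BLAST 2.17.0 and coding sequences aligned with Biopython 1.88. Intervals cover counting error only, and reads without molecular identifiers are not independent molecules. The genes and lists were chosen with earlier results of these data known. The text names the 10 genes, the called or, failing 3 of these, the 3 lowest-p members of each list, and the 5 closest profiles among genes averaging at least 20 reads, by log2 CPM with a prior count of 1.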

Additional observations from a re-analysis of the deposited data

How the results depend on the processing

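The number of the 10 genes called higher was 5 and stayed at 5 with DESeq2 size factors, limma-voom, no filter, a filter of 10 reads in 3 libraries and clusters past the stop codon only. It was 1 (STF2) with the DESeq2 Wald test and 1 (STF2) with the most-read cluster of each gene, where TMA10 fell below the filter. Leaving out each library gave 2 to 5, the lowest without deletion replicate 1 and 3 without deletion replicate 3. Over these the median of the tested genes' log2 fold changes was 0.63 to 0.99, the highest without wild-type replicate 1. Of 125 alternative values for single genes, 108 kept their side of the threshold, 15 lost the call, 2 gained it and 0 changed sign. The 108 include values of genes that were not called in the main fit and stayed so. The losses fell on GAD1 (6 of its 14 alternatives), TMA17 (5 of 14), DDR2 (3 of 14) and TMA10 (1 of 13). TMA10 lost its call in the DESeq2 Wald test (adjusted p = 0.058; range over its alternatives 0.0022 to 0.058). In site usage 0 genes were called under every alternative that could be run. With a cluster minimum of 50 none of the 10 genes could be tested. Leaving out each library moved the difference in mean end from -18.3 to 3.45 nt in TMA10 and from -0.85 to 0.061 nt in STF2 (both above 0 without wild-type replicate 2), and from -3.04 to 6.70 nt in TFS1 (below 0 without wild-type replicate 3). With the replicate block 4 genes were called higher (GAD1 was not, adjusted p = 0.055, edgeR). Over all genes tested, the deviations of same-numbered libraries from their group means correlated at -0.092, -0.028 and -0.012. These values gave no sign of pairing by replicate number. Counting noise pulls such correlations toward 0, so they cannot exclude it. AGGGG was present in 80% of the 10 promoters, and in 100% with 500 bases before the start codon. TATATA was present in 70% of the ends, and in 30% with 60 bases. Low read counts limit DDR2, TMA10 and RTN2, with 11, 16 and 16 wild-type reads in all.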
